A study of Mus musculus with 8 samples.

Results

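This account covers 10 genes of 3 calcium- or sugar-binding protein families in mouse neural stem and progenitor cells with and without Prmt5. They are the galectin genes Lgals1 and Lgals3, the annexin genes Anxa1, Anxa2, Anxa5 and Anxa6, and the S100 genes S100a4, S100a6, S100a10 and S100a11. The members were taken by gene symbol from the array annotation, and each has 1 probe among the 16562 named genes of the array. They were picked with the difference between the genotypes known, so their values in that comparison are given as a description, with no test. The Prmt5-depleted cells had the genotype Prmt5F/FNes, a floxed Prmt5 gene with Cre recombinase driven by Nestin, which is active in neural progenitors. The control cells had the genotype Prmt5F/F, the same floxed gene without Cre, so what Cre does and what losing Prmt5 does cannot be told apart. Cells of both genotypes came from stage E14.5 on a mixed C57BL/6 X 129S1/SvlmJ background. Total RNA was measured on Illumina MouseRef-8 V2 bead arrays, 4 of each genotype, numbered 1 to 4, and nothing in the labels says whether the arrays of a genotype hold separate embryos or cultures. P-values therefore measure the spread between these samples, which may be technical.

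Galectins are small lectins that bind galactose-containing sugar chains on proteins and lipids, outside the cell and, after membrane damage, on the inner face of vesicles. Annexins bind negatively charged membrane lipids when calcium rises and take part in membrane repair and vesicle traffic. S100 proteins are small dimers with paired EF-hand calcium-binding loops, and several of them bind the flexible N-terminal tail of an annexin, as S100a10 does with annexin A2. In the nervous system galectin-1 is made by astrocytes and adult neural stem cells, and galectin-3 by activated microglia.

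Mean deposited intensities were 449 to 598 per array. Of the 25662 probes, 12925 to 13602 were detected on Prmt5-depleted arrays and 12518 to 12922 on control arrays, without overlap. The lowest detected signal, normalized and on the log2 scale, was 5.08 to 5.21 on Prmt5-depleted arrays and 5.21 to 5.30 on control arrays. A dim gene of the same signal is therefore more readily counted as detected on Prmt5-depleted arrays. Prmt5 was lower in the Prmt5-depleted cells at each of its 3 probes, by 6.49-fold at the brightest (log2 difference -2.70, standard error 0.20, adjusted p = 1.11e-06). The position of the probes relative to the floxed exons was not determined. Marker genes of the labelled cell type were present, with Nes, Sox2 and Vim detected on all 8 arrays, while Pax6, Msi1 and, but for 1 control array, Prom1 were not detected. The 3 arrays Prmt5-depleted 1, Prmt5-depleted 3 and control 4 lay apart from the other 5 along the second principal component, which held 10.5% of the variance. Values below are normalized signals on the log2 scale unless a fold is named, and a gene counts as detected on an array when its detection p-value there is under 0.05. Signals of different probes are not compared, because each probe has its own brightness.

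The regions before the start of 5 members are shown because these genes differ widely in the values described next, with Lgals3 and S100a4 at the ends, and because S100a4 and S100a6 lie next to each other on the chromosome with only S100a5 between. Each line gives the 250 bases before the transcription start in the RefSeq table of build GRCm38.p6, 5′ to 3′ along the gene's strand. Capitals mark a TATA box (TATAAA), a GC box (GGGCGG) or an AP-1 site (TGANTCA), searched on both strands, with no marked motif overlapping another.
Lgals3, chr14:47373610-47373859, strand plus: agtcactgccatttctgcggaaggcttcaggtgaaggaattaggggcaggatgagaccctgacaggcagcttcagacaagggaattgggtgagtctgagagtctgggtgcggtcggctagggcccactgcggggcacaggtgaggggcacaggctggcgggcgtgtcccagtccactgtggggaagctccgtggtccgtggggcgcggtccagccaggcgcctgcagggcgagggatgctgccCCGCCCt
Anxa2, chr9:69453433-69453682, strand plus: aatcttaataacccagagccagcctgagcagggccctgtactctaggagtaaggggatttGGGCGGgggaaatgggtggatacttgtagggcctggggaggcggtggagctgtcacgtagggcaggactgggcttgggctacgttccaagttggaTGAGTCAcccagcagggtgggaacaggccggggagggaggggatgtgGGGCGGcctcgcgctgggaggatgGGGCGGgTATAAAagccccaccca
S100a11, chr3:93520246-93520495, strand plus: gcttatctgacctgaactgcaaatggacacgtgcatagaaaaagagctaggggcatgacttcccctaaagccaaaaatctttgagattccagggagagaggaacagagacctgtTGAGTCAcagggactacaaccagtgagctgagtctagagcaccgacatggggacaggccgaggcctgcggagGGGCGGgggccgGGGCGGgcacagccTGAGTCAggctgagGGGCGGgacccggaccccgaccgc
S100a6, chr3:90612644-90612893, strand plus: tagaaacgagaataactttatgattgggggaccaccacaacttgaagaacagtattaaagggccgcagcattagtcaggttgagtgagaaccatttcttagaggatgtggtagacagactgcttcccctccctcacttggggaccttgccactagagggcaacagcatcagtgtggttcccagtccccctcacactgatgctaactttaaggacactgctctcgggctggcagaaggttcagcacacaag
S100a4, chr3:90603520-90603769, strand plus: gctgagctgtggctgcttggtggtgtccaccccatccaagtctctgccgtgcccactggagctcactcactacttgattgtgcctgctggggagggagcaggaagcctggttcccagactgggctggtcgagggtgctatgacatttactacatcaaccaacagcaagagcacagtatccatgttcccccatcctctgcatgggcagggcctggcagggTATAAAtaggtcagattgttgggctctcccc
Start regions were matched for 7 of the 10 members. Among those 7, the TATA box letters occurred in 3 (Anxa1, Anxa2 and S100a4), the GC box in 3 (Lgals3, Anxa2 and S100a11) and the AP-1 letters in 2 (Anxa2 and S100a11). Over all 32841 start regions of the same length, 12.4% held the TATA box, 32.7% the GC box and 6.75% the AP-1 site. None of the 3 motifs was in all 5 matched members that were higher in Prmt5-depleted cells (Lgals3, Anxa2, Anxa5, S100a6 and S100a11), and S100a6 and Anxa5 held none of them. These are matches of letters and say nothing of binding.

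In 7 of the 10 genes every Prmt5-depleted array lay above every control array, namely Lgals1, Lgals3, Anxa2, Anxa5, S100a6, S100a10 and S100a11. Over all 9001 genes tested, 22.6% showed such a separation upwards and 22.2% downwards. By limma with Benjamini-Hochberg adjustment at 0.05, 48.6% of the genes passed the test, 24.0% as higher and 24.5% as lower. The 7 members passed that test as higher, but they were chosen from this comparison, so nothing is read from the count. Anxa6 was detected on all arrays and had a lower mean in Prmt5-depleted cells, with overlapping groups. Anxa1 and S100a4 were near background in both genotypes and were not tested. The 8 tested members had a median log2 difference of 1.56, also with Lgals3 at its lower bound, beside -0.04 over all tested genes. Lgals3 entered the test through its Prmt5-depleted arrays alone, and the other 7 were detected on all 8 arrays.

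**Figure D1:**
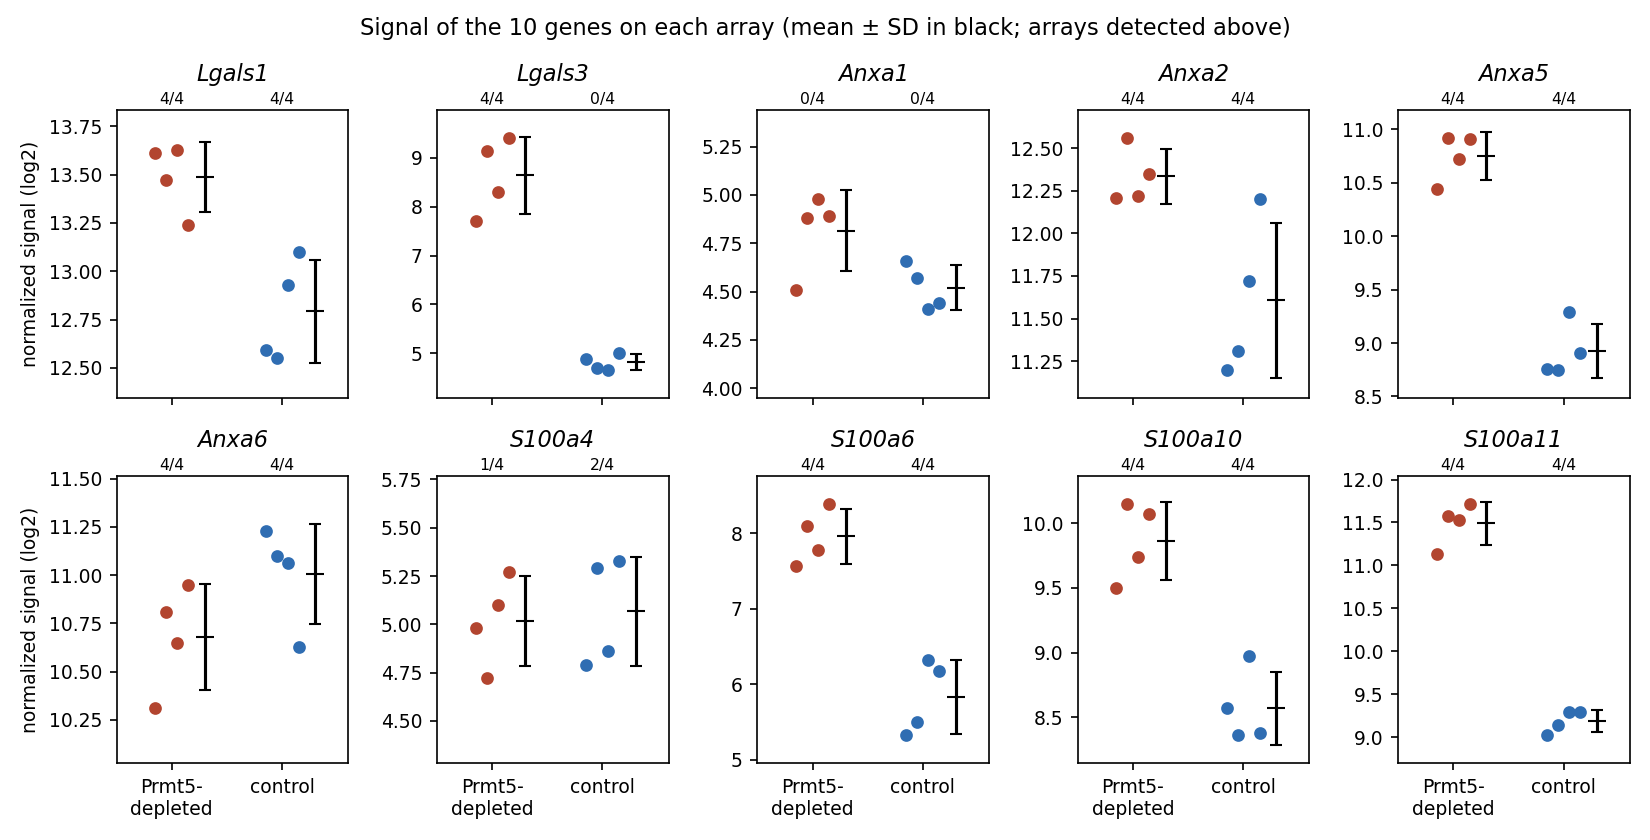
Normalized signal (log2) of the 10 genes on each array, Prmt5-depleted in red and control in blue, with mean ± SD in black and the number of arrays that detected the gene above each group. Each panel has its own axis. Lgals3 was detected on the Prmt5-depleted arrays alone, Anxa2 and Lgals1 separate the genotypes narrowly, and Anxa1, Anxa6 and S100a4 overlap.

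Lgals3, which encodes galectin-3, the galectin with a long collagen-like tail that marks damaged lysosomes and activated phagocytes, had the largest difference of the 10. Its signals were 7.70, 9.15, 8.31 and 9.41 on Prmt5-depleted 1 to 4, against 4.88, 4.70, 4.66 and 5.01 on control 1 to 4. All 4 Prmt5-depleted arrays detected it and no control array did, so the control signals are not measured levels. The lowest Prmt5-depleted array, at 7.70, was above every array's lowest detected signal (5.08 to 5.30). The mean was 8.64 ± 0.78 in Prmt5-depleted cells and 4.81 ± 0.17 in control cells (SD, n = 4 each), a bound of at least 10.4-fold higher when each control value is raised to the lowest signal that its array detected. The fitted log2 difference of 3.83 (standard error 0.31) rests on control signals below detection, and it changed with the processing. It was 2.50 on the authors' processed values, which keep the background, and 2.82 with an offset of 50. Both are smaller than the bound, which therefore applies to the main processing only. Without the 3 arrays that lay apart the fitted log2 difference was 4.54.

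Lgals1 encodes galectin-1, a dimeric galectin with its own role in neural progenitor growth. Its signals were 13.61, 13.47, 13.63 and 13.24 on Prmt5-depleted 1 to 4, against 12.59, 12.55, 12.93 and 13.10 on control 1 to 4. The groups did not overlap, though control 4 lay only 0.14 below the lowest Prmt5-depleted array. The log2 difference was 0.69 (standard error 0.15), which is 1.62-fold. It was 0.80 without control 4.

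Among the annexins, Anxa5 differed most of the 4 members. Annexin A5 binds phosphatidylserine, the lipid exposed on the surface of dying cells. Its signals were 10.44, 10.92, 10.72 and 10.91 on Prmt5-depleted 1 to 4, against 8.76, 8.75, 9.29 and 8.91 on control 1 to 4. The nearest arrays of the groups were 1.15 apart. The mean was 10.75 ± 0.23 in Prmt5-depleted cells and 8.93 ± 0.25 in control cells (SD, n = 4 each), 3.53-fold higher (log2 difference 1.82, standard error 0.16).

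Anxa2 encodes annexin A2, which pairs with S100a10 at the plasma membrane and there binds plasminogen activators. It read 12.21, 12.56, 12.22 and 12.35 on Prmt5-depleted 1 to 4, against 11.20, 11.31, 11.72 and 12.20 on control 1 to 4. Control 4 lay 0.02 below the lowest Prmt5-depleted array, and the other control arrays were clearly lower. The log2 difference of 0.73 (standard error 0.20), or 1.66-fold, became 0.93 without control 4 and 1.05 without the 3 arrays that lay apart. The separation of Anxa2 and of Lgals1 depends on the scaling. When arrays were scaled to the same 75th percentile in place of quantile normalization, Anxa2 read 12.22 on Prmt5-depleted 1 and 4 but 12.33 on control 4, and Lgals1 read 13.04 on Prmt5-depleted 4 but 13.26 on control 4. Then 5 of the 10 genes were separated in place of 7, as they were in the deposited signals before any normalization.

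Anxa6 encodes annexin A6, whose core is a doubled annexin fold and which acts in endosome and cholesterol traffic. It was 10.31, 10.81, 10.65 and 10.95 on Prmt5-depleted 1 to 4, against 11.23, 11.10, 11.06 and 10.63 on control 1 to 4. Control 4 lay below 3 of the Prmt5-depleted arrays, so the groups overlapped. The log2 difference was -0.32 (standard error 0.17), with SDs of 0.27 in Prmt5-depleted and 0.26 in control cells. It stayed below 0 in every alternative run, between -0.45 and -0.20. Anxa1, the glucocorticoid-induced annexin that acts through formyl peptide receptors, was not detected on any array. Its signals were 4.51 to 4.98 on Prmt5-depleted arrays and 4.41 to 4.66 on control arrays, all under the lowest detected signals of an array (5.08 to 5.30), so no difference could be shown at this signal.

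Of the S100 members, S100a11 had the clearest separation. S100A11 binds the tail of annexin A1 and moves to wounded plasma membrane. Its signals were 11.13, 11.58, 11.53 and 11.72 on Prmt5-depleted 1 to 4, against 9.02, 9.14, 9.29 and 9.29 on control 1 to 4. The nearest arrays were 1.84 apart, and the gene was 4.94-fold higher in Prmt5-depleted cells (log2 difference 2.30, standard error 0.14). The lowest value under any alternative was 2.19, on the authors' processed values.

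S100a6 encodes calcyclin, which binds several annexins and the ubiquitin ligase adaptor Cacybp. It had signals of 7.56, 8.10, 7.78 and 8.39 on Prmt5-depleted 1 to 4, against 5.32, 5.50, 6.32 and 6.17 on control 1 to 4. The groups lay 1.24 apart at their nearest arrays, with the control arrays close to the detection limit. The mean was 7.96 ± 0.37 in Prmt5-depleted cells and 5.83 ± 0.49 in control cells (SD, n = 4 each), 4.37-fold higher. The log2 difference of 2.13 (standard error 0.24) was 1.40 on the authors' processed values and 1.63 with an offset of 50.

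S100a10, the annexin A2 partner whose loops have lost calcium binding, read 9.50, 10.15, 9.74 and 10.07 on Prmt5-depleted 1 to 4, against 8.57, 8.36, 8.97 and 8.38 on control 1 to 4. No control array reached the Prmt5-depleted arrays, and the gap was 0.53. S100a10 was 2.45-fold higher (log2 difference 1.30, standard error 0.18), beside 1.66-fold for its partner Anxa2. S100a4, a member that binds non-muscle myosin and is known from motile and metastatic cells, was detected on 1 of 4 Prmt5-depleted and 2 of 4 control arrays. Its signals ran from 4.72 to 5.27 on Prmt5-depleted arrays and from 4.79 to 5.33 on control arrays. The groups overlapped over most of their range, and no difference was detectable at this signal.

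The Prmt5-depleted arrays fell into a similar order in most members, and the control arrays did not. Prmt5-depleted 1 was the lowest of the 4 Prmt5-depleted arrays in 7 of the 8 tested members. In those 7 both arrays that lay apart, Prmt5-depleted 1 and 3, were below both of the others, an order seen in 25.2% of all tested genes. Lgals1 had the opposite order, which 28.2% of all genes showed. Lgals3 spread most, over 7.70 to 9.41. Among control arrays, control 4 was the highest in 4 of the 8 (Lgals1, Lgals3, Anxa2 and S100a11), beside 32.3% of all tested genes, and the control signals of Lgals3 were below detection. Control 3 was the highest in 3 (Anxa5, S100a6 and S100a10) and control 1 in 1 (Anxa6). These orders use no difference between genotypes, but the arrays were set apart from these same data, so no test is given.

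**Figure D2:**
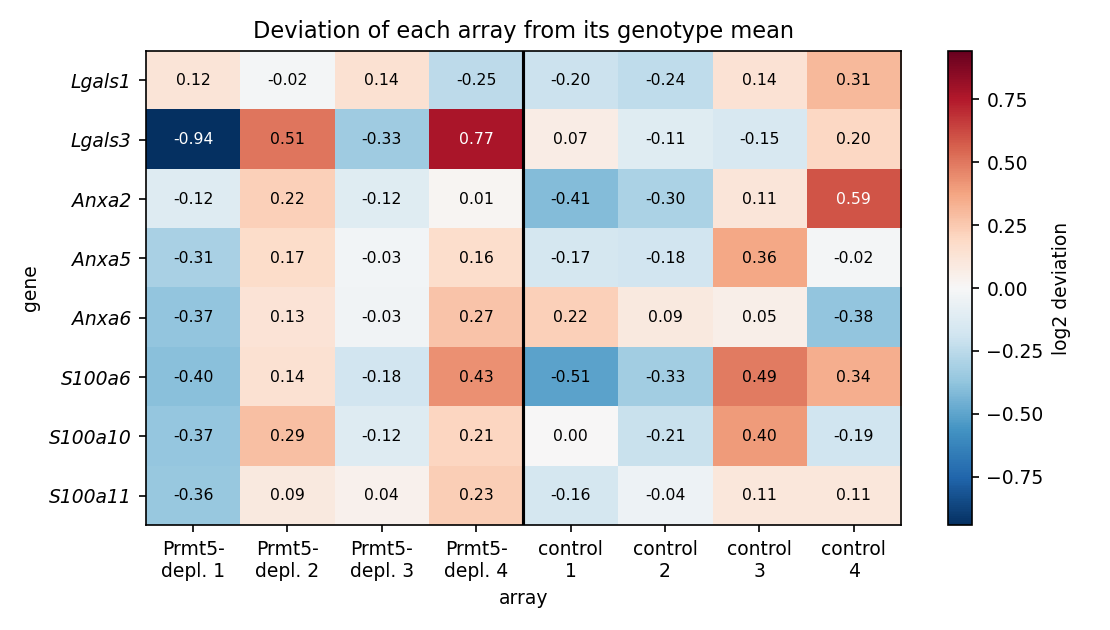
Log2 deviation of each array from the mean of its genotype for the 8 tested members, Prmt5-depleted arrays left of the line and control arrays right of it. Prmt5-depleted 1 is below its genotype mean in every gene but Lgals1, and control 4 is above it most in Anxa2.

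The rest of the 3 families was examined next, by symbol and not by response, though what remains is what the choice of members left over. Of 34 family genes on the array 16 were tested, members included. The test called 11 of the 16 higher and 1 lower, and left 4 uncalled. The median log2 difference of the 16 was 0.73, or 0.71 with Lgals3 and Anxa11 at their lower bounds. Of the 11 called higher, 7 are members chosen from this comparison, so nothing is read from this count or median. Outside the 10 members 24 genes were on the array and 8 were tested, where 4 rose, 1 fell and 3 did not pass, beside 24.0% higher and 24.5% lower among all genes tested. The other 16 were not kept, with signals of 4.34 to 5.27 on Prmt5-depleted arrays and 4.32 to 5.51 on control arrays. They are Lgals2, Lgals7, Lgals9, Lgals12, Anxa4, Anxa7, Anxa8, Anxa9, Anxa10, Anxa13, S100a3, S100a5, S100a8, S100a9, S100b and S100g.

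Anxa3, an annexin of neutrophils and microglia in other settings, rose most among these. Its brighter probe gave 12.41, 12.81, 12.59 and 12.36 on Prmt5-depleted 1 to 4, against 10.63, 10.15, 10.74 and 10.46 on control 1 to 4. The groups were 1.62 apart, and the rise was 4.13-fold (log2 difference 2.05, standard error 0.15, adjusted p = 1.19e-06). The second probe gave 4.16-fold. Its log2 difference was larger than that of any annexin among the 10 members. Anxa11, which links RNA granules to lysosomes, was undetected on control arrays and entered the test through its Prmt5-depleted arrays alone. Against the lowest detected signals it was at least 1.54-fold higher (log2 difference 0.72, standard error 0.11, adjusted p = 0.000235). That bound depends on the processing: the log2 difference was 0.33 on the authors' processed values and 0.42 with an offset of 50. A second probe was not detected on any array.

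Lgals4, a galectin known from the gut, rose 1.47-fold at its brightest probe (log2 difference 0.56, standard error 0.20, adjusted p = 0.0351), with overlapping groups. Another kept probe of Lgals4 gave a log2 difference of 0.02. The call was lost without Prmt5-depleted 2 or 4 (adjusted p = 0.102 and 0.0675) and without control 1, 3 or 4 (adjusted p = 0.0593, 0.0723 and 0.0887). It was also lost on the authors' processed values, without the detection filter and with the probes averaged (adjusted p = 0.0612, 0.0792 and 0.173). Lgals8, which binds sugars exposed on broken vesicles, did not pass the test at its brightest probe (log2 difference 0.32, adjusted p = 0.139), while its other probe gave 0.60 with an adjusted p of 0.0102 in the test over all probes. Its probes therefore fall on different sides of the threshold.

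Among the other S100 genes, S100a1, a calcium sensor best known from muscle, rose 1.85-fold (log2 difference 0.89, standard error 0.29, adjusted p = 0.0237). It read 7.15, 7.24, 7.55 and 7.17 on Prmt5-depleted 1 to 4, against 5.97, 5.86, 6.28 and 7.44 on control 1 to 4. Control 4 stood above 3 of the Prmt5-depleted arrays. The call was lost without Prmt5-depleted 3 (adjusted p = 0.0605) and without control 1, 2 or 3 (adjusted p = 0.0721, 0.0722 and 0.0535), and without the detection filter (adjusted p = 0.071). S100a16, a broadly expressed member, fell 1.64-fold (log2 difference -0.71, standard error 0.21, adjusted p = 0.0158), with 5.41 to 6.11 on Prmt5-depleted arrays and 6.13 to 7.09 on control arrays. Without Prmt5-depleted 2 its adjusted p was 0.0502. S100a13 and S100a14 did not pass the test, with log2 differences of 0.24 and -0.32.

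**Figure D3:**
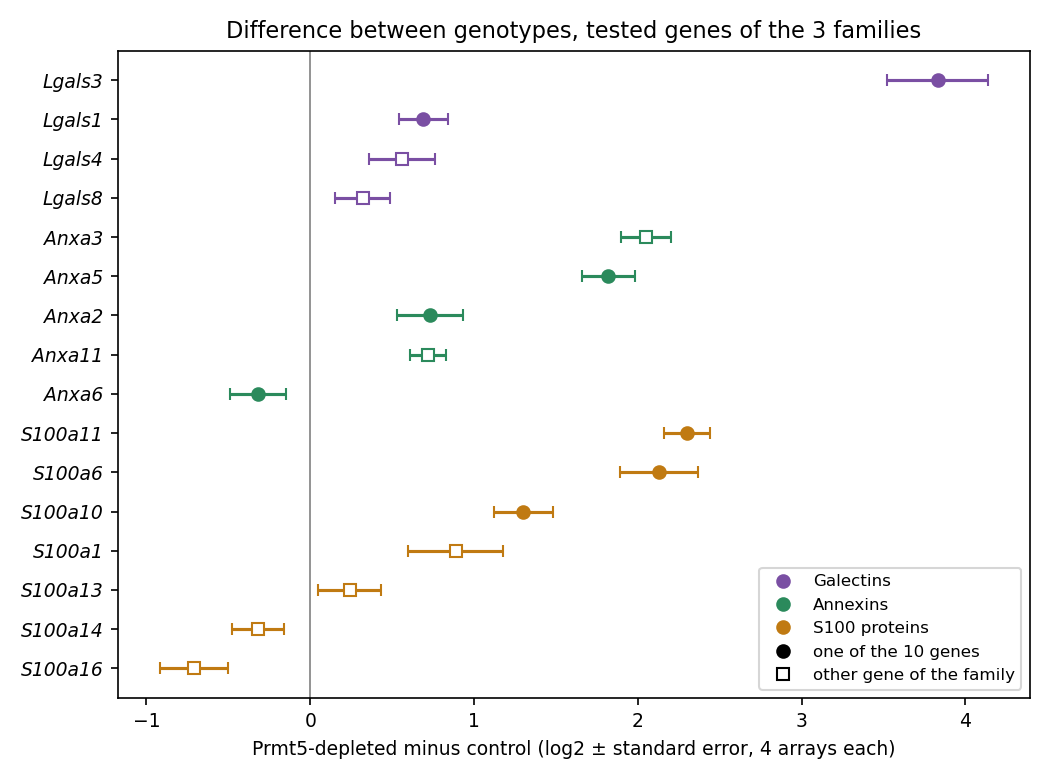
Log2 difference, Prmt5-depleted minus control, with its standard error for the 16 tested genes of the galectin, annexin and S100 families, 4 arrays a genotype. Filled circles are the genes chosen from this comparison and open squares are the other family genes. Lgals3 is farthest to the right at 3.83, a value that rests on undetected control signals, and S100a16 farthest to the left at -0.71.

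Most mouse S100 genes lie in a cluster on chromosome 3, and their order there was taken from the RefSeq table. S100a1, S100a13, S100a14 and S100a16 are direct neighbours among protein-coding genes, yet S100a1 rose, S100a16 fell and S100a13 and S100a14 missed the threshold. S100a4, S100a5 and S100a6 are likewise direct neighbours, of which S100a6 was higher in Prmt5-depleted cells while S100a4 and S100a5 were near background. S100a11 and S100a10 stand side by side, separated from S100a9 by 56 other protein-coding genes, and both were higher.

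**Figure D4:**
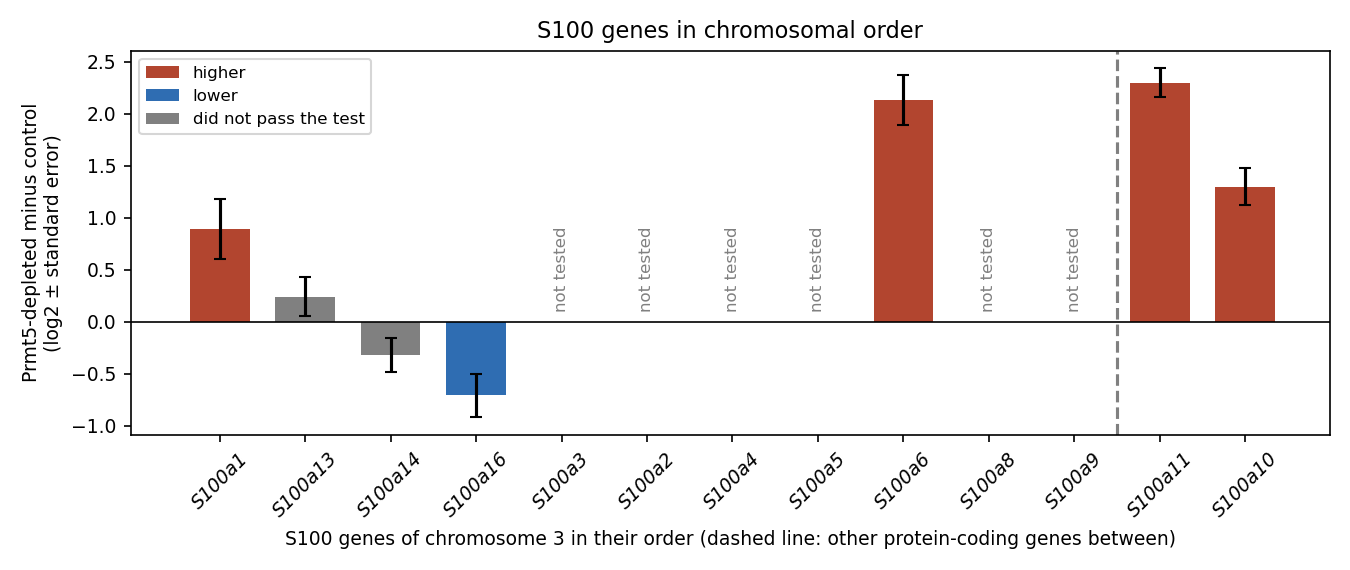
Log2 difference, Prmt5-depleted minus control, with its standard error for the S100 genes of chromosome 3 in chromosomal order (spacing not to scale). Genes marked not tested were near background or had no probe named here. S100a6, S100a11 and S100a10 stand highest, and S100a16 is below 0.

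Binding partners and receptors of these proteins were measured as a list. Of 20 listed genes 12 were tested, and 2 were called higher, 1 lower and 9 neither, beside 24.0% higher and 24.5% lower among all tested genes. The difference between these shares was not tested. The list had a median log2 difference of 0.02 beside -0.04 over all tested genes. Lamp1, a lysosomal membrane glycoprotein and galectin ligand, rose 1.47-fold (log2 difference 0.56, adjusted p = 0.00164). Plau, the urokinase plasminogen activator, was undetected on control arrays and entered the test through its Prmt5-depleted arrays alone. It was at least 1.26-fold higher (adjusted p = 0.0026). Itgb1, the integrin beta chain that carries galectin-binding sugars, fell 1.64-fold (log2 difference -0.72, adjusted p = 0.0015). The S100A6 partner Cacybp and the S100A4 partner Myh9 did not pass the test (log2 differences 0.32 and 0.31, adjusted p = 0.0663 and 0.0833). Lgals3bp, a secreted glycoprotein that binds galectin-3, was detected on 3 of 4 Prmt5-depleted arrays and no control array and so was not tested. It read 5.19, 6.43, 5.43 and 5.48 on Prmt5-depleted 1 to 4, against 4.51, 4.62, 4.65 and 4.45 on control 1 to 4.

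Several of the 10 genes are also made by cell types other than neural progenitors, so marker lists of those types were measured on the same arrays. In bulk RNA, more cells of a type and more RNA per cell cannot be told apart. Of 15 listed microglia and macrophage genes 13 were on the array and 4 were tested, with 2 called higher and 1 lower. Among all genes tested 24.0% were higher and 24.5% lower. Such lists were also summed on the linear scale, where a sum is carried by its brightest probes and measures no share of cells. The summed signal of the 13 was 232, 287, 290 and 565 on Prmt5-depleted 1 to 4, against 178 to 192 on control arrays. Its brightest gene on Prmt5-depleted 4 was Laptm5, at 8.22. Lgals3 was lowest on Prmt5-depleted 1 and highest on Prmt5-depleted 4, as that sum was, but Prmt5-depleted 2 and 3 were 287 and 290 in the sum and 9.15 and 8.31 in Lgals3. Of the 13 genes 6 (Ptprc, Itgam, C1qa, C1qc, Tyrobp and P2ry12) were not detected on any array. Another 4 were detected on Prmt5-depleted arrays alone, Aif1 on 4, Fcer1g on 3, and C1qb and Cx3cr1 on 1 each. Aif1 did not pass the test (log2 difference 0.33, adjusted p = 0.0739), and its groups overlapped. It counted as detected at 5.14 on Prmt5-depleted 2 and as undetected at 5.23 on control 4. The lowest detected signals of those 2 arrays were 5.08 and 5.30. Fcer1g was 5.06, 5.19, 5.44 and 6.52 on Prmt5-depleted 1 to 4, against 4.66 to 4.78 on control arrays, without overlap. Laptm5, a lysosomal protein of blood cells, rose 3.01-fold (adjusted p = 0.00236), Cd14 rose 1.36-fold (adjusted p = 0.015) and Ctss fell 1.24-fold (adjusted p = 0.0481). The call of Cd14 was lost on the authors' processed values (adjusted p = 0.0675). That of Ctss was lost there and with 75th percentile scaling, an offset of 50 and the replicate block (adjusted p = 0.18, 0.0574, 0.145 and 0.0845), and without the 3 arrays that lay apart (adjusted p = 0.392). It was also lost without any 1 of Prmt5-depleted 1, 2 or 3 or control 2, 3 or 4 (adjusted p between 0.056 and 0.129). Without Prmt5-depleted 4 the Lgals3 difference was 3.57 on the log2 scale.

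Of 15 mesenchymal, pericyte and meningeal genes 7 were tested, of which 6 rose and 1 did not pass, beside 24.0% higher among all genes tested. Lum and Foxc1 entered the test through their Prmt5-depleted arrays alone, and the bound of Foxc1 was only 1.06-fold. The sum over the 15 was 4360 to 5510 on Prmt5-depleted arrays and 2620 to 3560 on control arrays, without overlap. Its brightest genes were Igfbp5 (mean 10.84 in Prmt5-depleted and 10.25 in control cells) and Fbln1 (10.44 and 10.60), which weigh most in it. The proteoglycan genes Dcn and Lum rose 6.09-fold (adjusted p = 3.38e-07) and at least 3.55-fold (adjusted p = 4.25e-06), and Serpinf1 rose 4.12-fold (adjusted p = 0.00131). Col1a1, Pdgfrb and Tagln were not detected on any array, while Col1a2 and Col3a1 were each detected on 3 Prmt5-depleted arrays and no control array. Of 10 endothelial genes only Esam was tested, and it rose 2.12-fold (adjusted p = 0.00578) with overlapping groups, at 5.64 on Prmt5-depleted 1 and 5.72 on control 1. Flt1 was detected on 3 of 4 Prmt5-depleted arrays and no control array and so was not tested. It read 5.15, 6.78, 5.78 and 6.34 on Prmt5-depleted 1 to 4, against 4.58 to 4.72 on control arrays, without overlap. Among the other endothelial genes, Pecam1, Cdh5, Tek, Emcn and Tie1 were not detected on any array. The endothelial sum was 141 to 265 on Prmt5-depleted arrays and 96.7 to 136 on control arrays. Whether such cells contributed to the higher signals of the 10 genes was not tested.

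Neural lists moved in both directions, and their counts stand beside 24.0% higher and 24.5% lower among all genes tested. Of 8 tested neuron markers 7 rose, with sums of 21800 to 24200 on Prmt5-depleted arrays and 7370 to 8230 on control arrays, led by Tbr1 (8.10-fold), Stmn2 (6.25-fold) and Gap43 (4.34-fold), with adjusted p of 5.44e-08, 5.44e-08 and 1e-07. Of 7 tested astrocyte markers 3 rose and 2 fell, with overlapping sums of 4280 to 5770 and 3960 to 5930 in Prmt5-depleted and control cells. Clu and Sparcl1 rose 10.1-fold and 3.09-fold (adjusted p = 1.01e-06 and 2.5e-05). Ntsr2 and Fgfr3 fell 4.06-fold and 6.55-fold (adjusted p = 2.25e-07 and 2.61e-05), and Gfap was not detected on any array. Of 7 tested stem cell and radial glia markers 2 rose (Nes and Vim) and 3 fell, and with 75th percentile scaling none rose. The falls were Hes5, Sox2 and Hes1 (8.79-fold, 2.32-fold and 2.63-fold, adjusted p = 4.59e-08, 2.25e-05 and 2.6e-05). Their sums overlapped, at 31500 to 34900 in Prmt5-depleted and 32000 to 36000 in control cells. Of 7 tested oligodendrocyte lineage markers 6 fell and 1 rose, with sums of 23200 to 27500 on Prmt5-depleted arrays and 35300 to 39400 on control arrays. Olig1, by far the brightest gene of the list (mean 14.61 in Prmt5-depleted and 15.08 in control cells), carries those sums. Pdgfra and Gpr17 entered the test through their control arrays alone. Pdgfra was at least 30.6-fold lower, Gpr17 at least 15.2-fold lower and Ugt8a 3.17-fold lower (adjusted p = 8.98e-09, 5.44e-08 and 4.14e-06). The 1 marker of this list that rose was Mbp, 4.16-fold (adjusted p = 2.29e-05), without overlap.

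**Figure D5:**
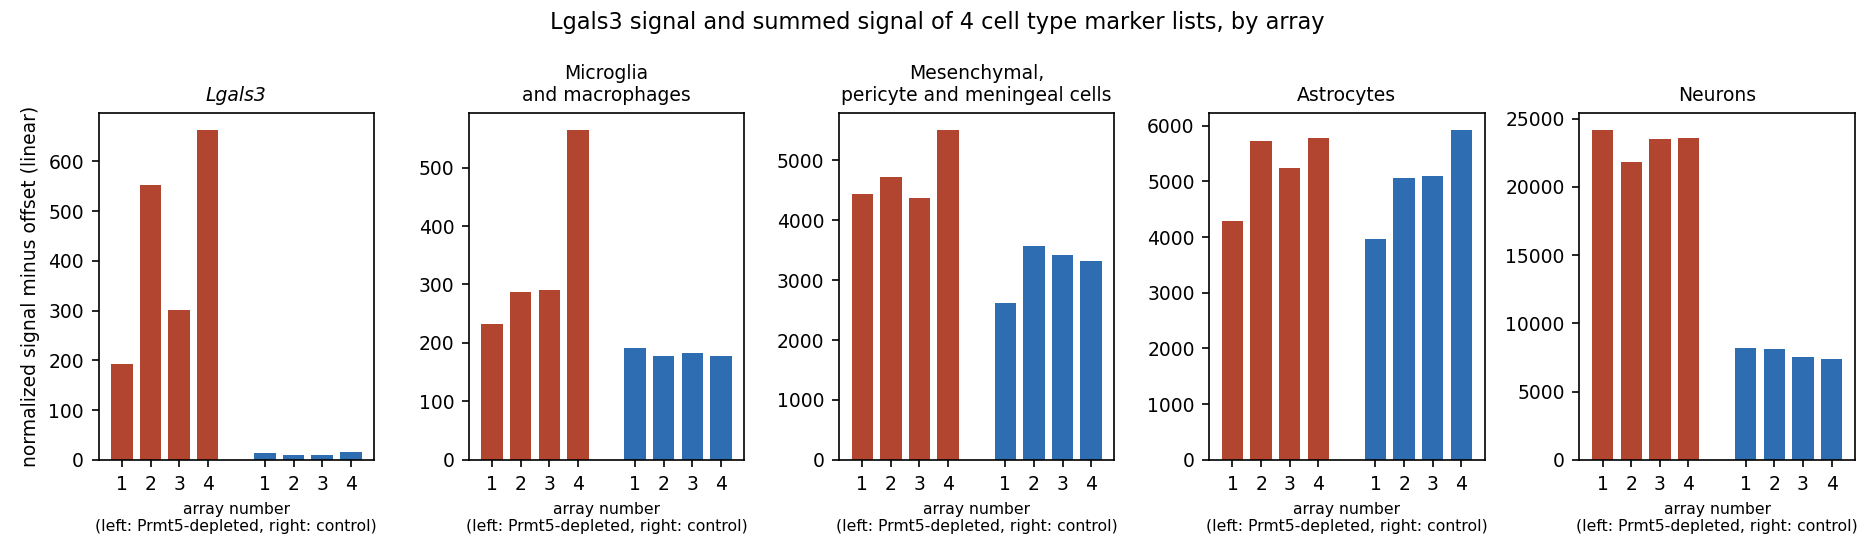
Linear normalized signal, with the offset taken off, of Lgals3 and of 4 marker lists summed over their genes, by array, Prmt5-depleted arrays left in red and control arrays right in blue. The microglia and macrophage sum is highest on Prmt5-depleted 4 at 565. That sum and the neuron and mesenchymal sums do not overlap between genotypes, while the astrocyte sums do. Each sum is carried by the brightest genes of its list.

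The genes outside the 3 families whose profile was nearest to the members' median profile were Galt, Spsb1, Hbegf, Lrrc24 and Phlda3. Each gene was centred on its control mean, and likeness was the root mean square difference from that profile over the 8 arrays, which was 0.118, 0.128, 0.138, 0.142 and 0.145 for the 5 genes in that order. Galt encodes an enzyme of galactose breakdown, Hbegf a ligand of the EGF receptor and Phlda3 an inhibitor of Akt. The members' median profile stood at 1.22, 1.79, 1.48 and 1.74 above the control mean on Prmt5-depleted 1 to 4. Galt stood at 1.47, 1.89, 1.53 and 1.68 there. Among the members Anxa5 was nearest to the profile (0.213), and Lgals3 farthest from it (1.65). The profile is the median of these same members, so their distances are a description only. Each distance also counts the difference between genotypes, with which known the members were chosen. That log2 difference was 1.40 to 1.70 in the 5 outside genes.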

How the data were processed

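Per the file headers, the authors' first table holds non-normalized intensity, and beside it a deposited detection p-value for each probe on each array. How scanner output became that table is not stated. The series matrix holds a second set of deposited intensity values, which equal the quantile normalization of the first table within 3.64e-12 and served as an alternative. Every array column matched its sample by name.

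Signals were background corrected with normexp from the detection p-values, given an offset of 16, normalized by quantiles and log2 transformed (neqc, limma 3.58.1, R 4.3.3, statmod 1.5.0). The offset pulls fold changes of dim probes towards 0. Quantile normalization hides a change shared by most genes. Probes detected (p under 0.05) on at least 4 of 8 arrays were kept, 13196 of 25662, and each gene was represented by its brightest kept probe, giving 9001 genes. Probe names came from the platform annotation, updated through Entrez IDs in a RefSeq table of GRCm38.p6, where 23927 probes matched and 0 symbols changed. Of the probes 23943 had 1 gene, 0 had several and 1719 had none. Genotypes were compared with lmFit and eBayes, two-sided and without covariates, with p-values adjusted over all genes by Benjamini-Hochberg at 0.05, and the code was tested on simulated data. Where no array of a genotype detected a gene, the fold is a bound against the lowest detected signal of each array. Such a bound applies to this processing only, and alternatives can give a smaller fold. The number of arrays limits the precision. The members and lists were chosen with earlier results of these data known. Named are all members, all tested family genes, up to 8 called partners, up to 3 markers a list with the smallest adjusted p, and the 5 genes nearest in profile. Cacybp, Myh9, Lgals3bp, Mbp and Fgfr3, and the markers given as detected or not detected, were named after their values were seen. Alternatives were the authors' processed values, scaling to the 75th percentile, an offset of 50, no detection filter, the mean of a gene's probes, the replicate number as a block, each array left out, the 3 arrays apart left out, and their split as a covariate. The genes tested were held fixed when arrays were left out.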

Additional observations from a re-analysis of the deposited data

Results flagged for a closer look

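In 5 of 82 groups of 4 arrays examined (41 named genes, both genotypes) 1 array lay far from the other 3 by Dixon's test, where chance gives about 1 in 20. None of the 5 concerns a galectin, annexin or S100 gene. Prmt5 was 10.02 on control 1, against 10.48 to 10.54 on the other control arrays. Laptm5 was 6.16 on control 1, against 5.25 to 5.37. Sox2 was 10.91 on control 1, against 10.44 to 10.50. Tbr1 was 6.20 on control 4, against 5.95 to 5.99. Ugt8a was 8.02 on control 2, against 7.44 to 7.5. What set these arrays apart was not tested.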

How the results depend on the processing

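The count of members with separated genotypes was 7 on the authors' processed values, which was fixed in advance. Background correction keeps the rank of each probe on its array. Both sets of values are quantile normalized, so the arrays keep their order at each probe. The count was 5 with 75th percentile scaling, as in the deposited signals before any normalization. The other alternatives also gave 7, but they could not lower it. They keep the order of the arrays within each tested member, or leave arrays out. The median log2 difference of the 8 tested members was 1.29 on the authors' processed values, against 1.56, and 1.42 to 1.73 under the other alternatives. The authors' processed values are not background corrected, and Lgals3 and S100a6 moved most. Among family genes other than the members, the count that rose was 2 to 4 when 1 array was left out (2 without control 1 or control 3, 4 with all arrays), and the count that fell was 0 to 1 (0 without Prmt5-depleted 2). With the component 2 split as a covariate 2 of them fell and 5 partners were called, in place of 1 and 3, and the cause was not tested. Counts over all genes lay between 3884 and 4883, against 4371. Whether the replicate numbers pair the samples is not stated in the labels. Deviations of same-numbered arrays correlated at -0.13, 0.25, -0.16 and -0.38, which cannot decide it, because each is taken from a mean of 4 arrays. With the replicate number as a block 3923 genes, 12 family genes and 3 partners were called. Each number occurs 1 time in each genotype, so that block changes standard errors but no log2 difference. Prmt5 at -2.70, and the block runs among the differences counted next, were therefore fixed in advance. So were differences without the detection filter where a gene's brightest probe stayed the same. With probes averaged, the same holds for a gene with 1 kept probe, as for each tested member. In all these runs only the adjusted p, and so the call, could change. Of 608 log2 differences of single genes recomputed, 0 changed sign, 26 lost their call, 3 gained one (Lgals8 with its probes averaged or with the covariate, and S100a14 with the covariate) and 4, of Lgals3 and S100a6, moved by more than the spread of the arrays. Genes near background, here Anxa1, S100a4 and the control signals of Lgals3, have no measured level below the detection limit.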
